A study of Mus musculus with 8 samples.

Results

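The mitogen-activated protein (MAP) kinase cascade genes were followed here as places where anti-IRF5 chromatin signal was or was not called. They were all genes named as the nearest gene of at least 1 deposited peak whose symbol begins with Mapk, Map2k, Map3k, Map4k or Mapkapk and a digit, apart from Mapk14, Mapkapk2 and Map3k8. The rule took 38 of the 20875 genes that the 6 peak lists name. They comprised 4 MAP4K, 12 MAP3K, 7 MAP2K and 7 MAPK genes, 2 genes of MAPK-activated kinases (MAPKAPK), and 6 associated genes for scaffold, interacting or related products, 1 of which is the antisense transcript Map2k3os. A gene enters this set only through a nearest peak, and so do the 20875 genes it is set against. The same pattern takes 50 symbols in the RefSeq gene table of mouse. The other 12, among them Map3k7 (the kinase TAK1), were not named as a nearest gene in these lists and were not analysed here.

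A MAP kinase cascade is a relay of protein kinases. A MAP4K or another upstream signal activates a MAP3K, which phosphorylates a MAP2K, which phosphorylates a MAP kinase of the ERK, JNK or p38 groups, and these act on transcription factors and on substrate kinases such as the MAPKAPKs. In macrophages, Toll-like receptors start both these cascades and the IRF and NF-kB routes. CpG DNA is a ligand of Toll-like receptor 9, and IRF5 is a transcription factor that acts downstream of the adaptor Myd88.

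The assay was CUT&Tag, in which an antibody tethers a protein A-Tn5 fusion that cuts and tags nearby chromatin, so that a peak marks a stretch with more tagged fragments than its background. The cells were wild-type murine bone marrow derived macrophages, thawed before the assay, bound to concanavalin A beads and permeabilised with digitonin. The 2 conditions were PBS control cells and cells stimulated with CpG, each with 2 anti-IRF5 libraries, here called control 1, control 2, CpG 1 and CpG 2. The labels give neither the CpG dose nor its duration. They also do not tie the libraries to different mice or cultures, so a p-value covers only how these libraries vary, and that variation may be technical. By the names of the lists, peaks of both control libraries were scored over a single IgG library of control cells. The labels name a single IgG track for CpG cells too, although the list of CpG 2 writes its name with an added letter. The IgG libraries came from the same condition as the antibody libraries, so the background library and the condition cannot be told apart. The lists give called peaks and no read totals, so the sequencing depth is unknown.

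The libraries differed in how much was called. The lists held 29226 and 37315 peaks in the control libraries, 13553 in CpG 1 and 25851 in CpG 2, so CpG 1 was the shortest by far. Of 7 macrophage marker genes that the lists name, 5, 6, 3 and 5 had a promoter peak in control 1, control 2, CpG 1 and CpG 2, and Adgre1 and Cd68 had one in every library. Promoter peaks at 3 dendritic cell markers numbered 0, 1, 0 and 1, and those at 4 neutrophil markers 0, 1, 0 and 0. The named B cell, T cell and erythroid markers, 2 genes each, had none, and the only named stromal or endothelial marker, Pecam1, had one in all 4 libraries. Their part in the results was not tested.

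The promoter sequences of the 3 MAP kinase cascade genes with a promoter peak in every library are shown first, since most results below turn on whether such a peak was called. They are the 250 bases before the start that RefSeq gives in GRCm38.p6. The build of the peak lists is not stated in the sources at hand, and whether both annotations use the same start was not tested. Map3k3 encodes MEKK3, a MAP3K upstream of the ERK5 route, and its window is chr11:106084337-106084586 on the plus strand. Mapk7 encodes ERK5 itself, with its window at chr11:61494267-61494516 on the minus strand. Mapk9 encodes the JNK family kinase JNK2, with its window at chr11:49846501-49846750 on the plus strand. Capitals mark 2 kinds of motif, found on either strand: an NF-kB type motif, which is GGG and CC with 5 bases of any kind between, and the CCAAT box, read as CCAAT or ATTGG. The CCAAT box was chosen after the sequences were seen.
Map3k3: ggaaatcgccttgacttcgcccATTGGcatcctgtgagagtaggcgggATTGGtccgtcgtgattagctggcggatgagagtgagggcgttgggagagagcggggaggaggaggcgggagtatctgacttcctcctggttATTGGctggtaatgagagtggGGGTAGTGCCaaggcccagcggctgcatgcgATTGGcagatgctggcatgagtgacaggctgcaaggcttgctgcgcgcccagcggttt
Mapk7: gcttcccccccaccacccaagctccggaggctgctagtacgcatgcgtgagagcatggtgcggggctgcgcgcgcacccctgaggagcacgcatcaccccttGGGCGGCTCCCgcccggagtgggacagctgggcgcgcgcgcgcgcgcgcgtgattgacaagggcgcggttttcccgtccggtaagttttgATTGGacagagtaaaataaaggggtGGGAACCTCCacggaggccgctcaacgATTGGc
Mapk9: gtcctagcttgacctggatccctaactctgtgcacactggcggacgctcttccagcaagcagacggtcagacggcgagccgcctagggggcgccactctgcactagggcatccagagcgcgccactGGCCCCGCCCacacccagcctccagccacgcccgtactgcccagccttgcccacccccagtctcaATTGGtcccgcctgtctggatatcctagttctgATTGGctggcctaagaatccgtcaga
The GC content of these stretches was 60%, 66.4% and 63.6%. All 3 held at least 1 match of each kind and none of the IRF type repeat, defined as GAAA, 2 bases of any kind and GAAA. A match is a description of the letters and not a bound site.

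RefSeq windows running from 250 bases before to 50 after the start were found for 31 of the 38 genes. The NF-kB type motif was present at 29 of them (93.5%), against 53.5% of 27025 genes and 59.8% of 17492 protein-coding genes. The motif is rich in G and C, and the median GC content of the 250 upstream bases was 65.2% for the 31 genes, 52% for all genes and 55.2% for coding genes. The part of GC content in that share was not tested. The CCAAT box was present at 13 (41.9%), against 41.1% of all genes, a share near the background. The AP-1 motif, TGANTCA, was present at Map2k6 and Map2k7 (6.45%, against 8.97%). The IRF type repeat was present at 1 of the 31 (3.23%), against 3.99% of all genes. That gene was Mapkapk3, which encodes the p38 substrate kinase MK3. Its second RefSeq start has the repeat from 16 to 7 bases upstream, in capitals in the last 56 bases before the start, chr9:107289397-107289452 on the minus strand of GRCm38.p6.
Mapkapk3: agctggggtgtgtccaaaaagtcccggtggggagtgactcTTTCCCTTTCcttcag
No library had a peak of the Promoter class for Mapkapk3, although it was the nearest gene of 4, 5, 0 and 2 peaks in control 1, control 2, CpG 1 and CpG 2. Both control libraries had a peak just past its annotated start, of 4.56-fold and 3.32-fold. The summits of these peaks lay 261 to 429 bases downstream, and no CpG peak was called there.

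In the peak lists, a gene was counted as having a promoter call when a peak carried the Promoter class for that gene. Among the control libraries, 17 of the 38 genes (44.7%) had a promoter call in the first and 20 (52.6%) in the second. CpG 1 had 5 such genes (13.2%) and CpG 2 had 16 (42.1%). The same shares over all 20875 named genes were 24.1%, 28.7%, 10.4% and 22.3%. Over the 11344 named protein-coding genes, which are the closer comparison since 37 of the 38 code for proteins, they were 33.2%, 38.8%, 14.1% and 30.5%. The cascade genes therefore lay 11.6, 13.8 and 11.6 percentage points above the coding genes in control 1, control 2 and CpG 2, and below them in CpG 1, where the difference was -0.946 points.

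**Figure D1:**
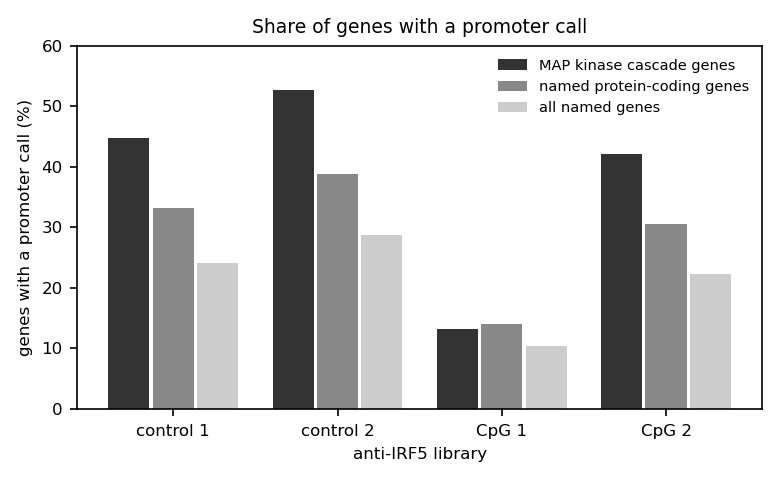
Percent of genes with a promoter call in each of the 4 anti-IRF5 libraries, for the MAP kinase cascade genes, all named genes and named protein-coding genes. The cascade genes stood at 44.7%, 52.6%, 13.2% and 42.1%, and CpG 1 was the lowest library in each set.

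Between the conditions, the share of cascade genes with a promoter call was 48.7% ± 5.58 in control and 27.6% ± 20.5 in CpG cells (SD, n = 2 each). The CpG minus control difference of -21.1 percentage points gave p = 0.333 (two-sided exact permutation test), which is the smallest p that the 6 ways of dividing these 4 libraries allow. Over all named genes the same share was 26.4% ± 3.24 in control and 16.3% ± 8.4 in CpG cells. The cascade genes' lead over the coding genes was 12.7 ± 1.61 points in control and 5.32 ± 8.86 points in CpG cells (exact permutation p = 0.667, where no p under 0.333 was possible), and the CpG spread came from CpG 1. The size of the difference rested on single libraries: without CpG 1 the difference was -6.58 points, and without CpG 2 it was -35.5 points.

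Across the libraries, 3 of the 38 genes (7.89%) had a promoter call in all 4, against 5.46% of all named genes and 7.77% of coding genes. These were Map3k3, Mapk7 and Mapk9, all of them on chromosome 11. None of the 38 had a promoter call in each CpG library without one in a control library, a pattern seen in 0.618% of all named genes. The opposite, control-only pattern was found for Map4k4, Mapk1ip1l and Mapk3 (7.89%, against 4.35% of all named and 6.06% of coding genes). The most frequent pattern among genes with any call was a peak in every library but CpG 1. It held for 7 genes (18.4%), against 7.74% of all named and 10.7% of coding genes: Map4k1, Map4k2, Map3k11, Map3k14, Map2k3, Map2k3os and Mapkapk5. Without CpG 1, the genes called in all remaining libraries numbered 10 (26.3%, against 13.2% of all named and 18.4% of coding genes). Map2k1 and Mapk8ip3 would then count as called in CpG cells only, Mapk8ip3 by the class of its peaks alone, since both control libraries have a peak in the same start region. A call in a single library was found for 8 genes (21.1%, against 15% of all named and 19% of coding genes), and 12 genes had none (31.6%, against 60.1% of all named and 46.6% of coding genes).

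**Figure D2:**
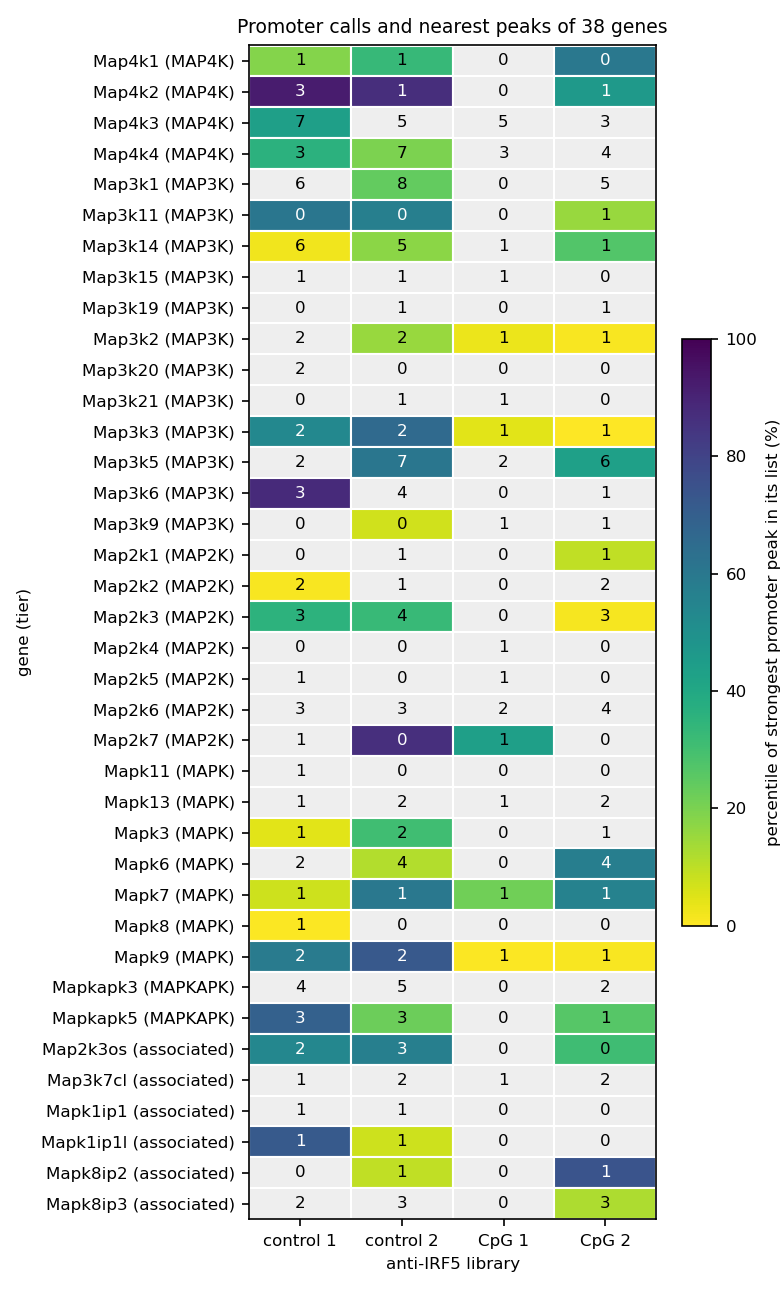
Promoter calls of the 38 MAP kinase cascade genes (rows, by tier) in the 4 anti-IRF5 libraries (columns), with the colour giving the percentile of the strongest promoter peak within its list, grey no promoter call, and the printed number the peaks whose nearest gene it is. Map3k3, Mapk7 and Mapk9 are coloured in every column, and the CpG 1 column has 5 coloured genes.

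Mapk7 had a promoter peak in each library, with the fold enrichment over background that the authors' peak caller gave as 3.89 and 6.73 in the control libraries, 4.17 in CpG 1 and 6.45 in CpG 2. In each condition the second library had the higher value, and the ranges of the conditions overlapped. To place a peak within its own list, its percentile is the share of that list's peaks with a lower fold enrichment, which was 7.64, 59.8, 21.5 and 56.2. Percentiles of lists of different lengths show no change between them. The summits lay at -51, -139, -27 and +9 bases from the annotated start (gene at chromosome 11, 61379637 to 61385232, minus strand, in the coordinates of the lists).

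Mapk9 had promoter peaks of 6.07-fold and 7.9-fold in the control libraries, 2.4-fold in CpG 1 and 2.93-fold in CpG 2. By fold enrichment, the peak stood above the middle of both control lists, at percentiles 58.8 and 72.6. In both CpG lists it was among the lowest, at 0.73 and 0.828. Its pileup, a signal of fragment coverage, was 41, 30, 35 and 24 in the 4 libraries, with CpG 1 above control 2. The summits were at -87, -4, -149 and -77 bases from the start (chromosome 11, 49737577 to 49777248, plus strand), and control 2 had a further peak at -1503 bases. Map3k3 had promoter peaks of 5.92-fold and 7.19-fold in the control libraries and of 3.13-fold and 2.39-fold in CpG 1 and CpG 2. Their percentiles were 53.2, 65.9, 4.49 and 0.135, again with both CpG peaks near the bottom of their lists by fold enrichment. Their pileups were 60, 68, 71 and 42, the highest in CpG 1. Pileups of libraries of unknown depth have no common scale, and the part of the background in these folds was not tested. Summits at -407, -291, -286 and -285 bases from the start (chromosome 11, 105975438 to 106046272, plus strand) placed these peaks further upstream than the peaks beside the starts of Mapk7 and Mapk9.

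**Figure D3:**
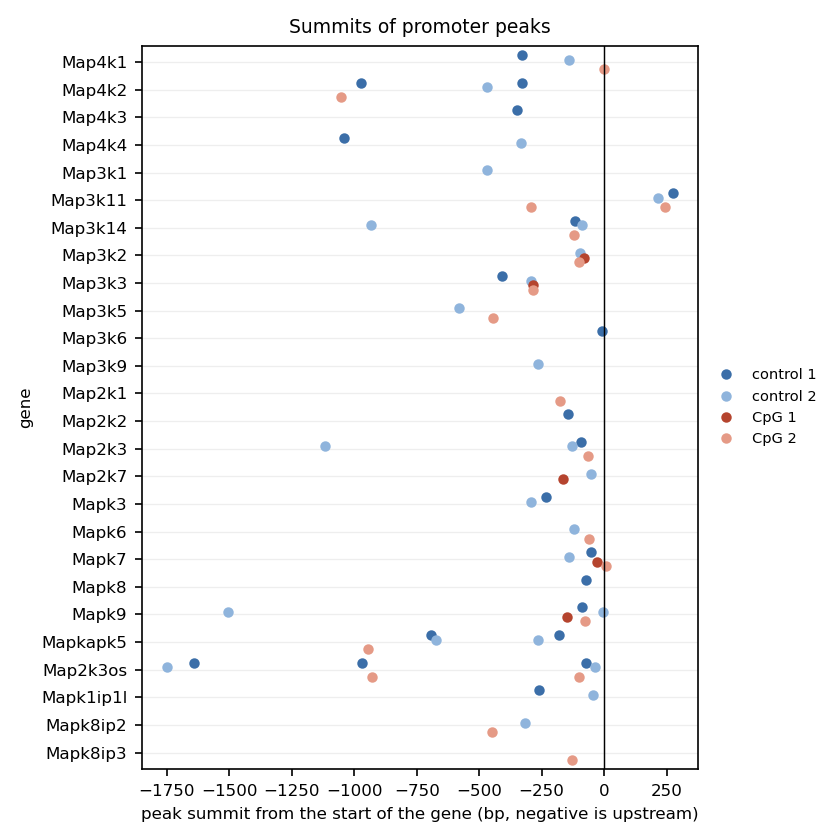
Distance of each promoter peak's summit from the annotated start of its gene (x axis, bases, negative upstream) for the cascade genes with a promoter call in at least 1 library, with 1 colour per library; a peak shared by Map2k3 and Map2k3os is drawn for both. In the 4 libraries 17 of 20, 20 of 24, 5 of 5 and 15 of 17 peaks have a summit from 1000 bases upstream to 100 downstream, and those of Map3k11 shared with Pcnx3 lie 216 to 274 bases downstream.

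The MAP4K tier, the kinases that feed MAP3Ks, had promoter calls at 4, 3, 0 and 2 of its 4 genes in control 1, control 2, CpG 1 and CpG 2. As shares these were 100%, 75%, 0% and 50%, against 33.2%, 38.8%, 14.1% and 30.5% of coding genes. The same coding shares stand beside the tiers below. Map4k2, encoding germinal centre kinase, had the highest promoter peaks of the tier in both control libraries, 10.3-fold in control 1 (percentile 92.5), 10.6-fold in control 2 (86.8) and 5.87-fold in CpG 2 (46.1), with none in CpG 1. Map4k1, encoding the haematopoietic progenitor kinase HPK1, had peaks of 4.52-fold, 5.33-fold and 6.71-fold in the same 3 libraries, at a promoter it shares with Eif3k in control 2 and CpG 2. Map4k4 had a promoter peak of 5.14-fold in control 1 at -1042 bases and of 4.75-fold in control 2 at -332 bases. These 2 peaks did not overlap each other and no CpG peak overlapped them, so the control-only call of Map4k4 rests on 2 different places. Map4k4 was also the nearest gene of 3, 7, 3 and 4 peaks in the 4 libraries, most of them outside its promoter.

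In the MAP3K tier, 4, 7, 2 and 5 of 12 genes had a promoter call (33.3%, 58.3%, 16.7% and 41.7%). Map3k11, encoding the mixed lineage kinase MLK3, had peaks of 6.21-fold and 6.5-fold in the control libraries and 4.11-fold in CpG 2 at a promoter shared with Pcnx3. Map3k14, encoding the NF-kB-inducing kinase NIK of the non-canonical NF-kB route, had peaks near its start of 3.2-fold, 3.69-fold and 5.07-fold in control 1, control 2 and CpG 2. Map3k2, encoding MEKK2, a close relative of MEKK3, had a peak at its start in all 4 libraries (6.08-fold, 4.48-fold, 2.91-fold and 3.03-fold), but in control 1 that peak did not carry the Promoter class for the gene. Map3k5, encoding the stress-activated kinase ASK1, had promoter peaks of 6.84-fold in control 2 and 5.83-fold in CpG 2. Map3k1, encoding MEKK1, had a single promoter peak of 4.95-fold, in control 2. Control 1 had a peak of 11.6-fold in the start region of Map3k1, with its summit 242 bases downstream and without the Promoter class. A call in 1 control library alone was also found for Map3k6 (9.04-fold) and Map3k9 (3.96-fold). The start region of Map3k6 also held peaks of 4.5-fold in control 2 and 12.2-fold in CpG 2, with summits as far as 748 bases past the start and without the Promoter class. Map3k15, Map3k19, Map3k20 and Map3k21 had no promoter call.

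In the MAP2K tier, 2, 2, 1 and 2 of 7 genes had a promoter call (28.6%, 28.6%, 14.3% and 28.6%). Those shares lay below the shares of coding genes (33.2%, 38.8%, 14.1% and 30.5%) in each library but CpG 1. Map2k3, which encodes the p38 activator MKK3, had peaks of 5.1-fold, 5.32-fold and 3.04-fold in control 1, control 2 and CpG 2, with summits at -93, -130 and -63 bases. Its antisense gene Map2k3os starts beside it on the other strand and shares those peaks, so the calls of the 2 genes are not separate. Map2k7, encoding the JNK activator MKK7, had a peak at its start in every library, of 8.59-fold, 10.5-fold, 4.84-fold and 6.56-fold, but the Promoter class for the gene only in control 2 and CpG 1, and Gm49320 shares that promoter. Map2k1 and Map2k2 encode the ERK activators MEK1 and MEK2. Map2k1 had a promoter peak of 4.1-fold in CpG 2 only, and Map2k2 one of 2.87-fold in control 1 only. The start region of Map2k2 also held peaks of 3.17-fold in control 1, 3.38-fold in control 2 and 5.97-fold in CpG 2. Their summits lay 105 to 352 bases past the start, and they did not carry the Promoter class. Map2k4, Map2k5 and Map2k6, whose products activate JNK, ERK5 and p38 kinases, had no promoter call.

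In the MAPK tier, 4, 4, 2 and 3 of 7 genes had a promoter call (57.1%, 57.1%, 28.6% and 42.9%). Besides Mapk7 and Mapk9, Mapk3, encoding ERK1, had peaks of 3.61-fold in control 1 and 5.2-fold in control 2, which overlapped each other and no CpG peak. Mapk6, encoding the atypical kinase ERK3, had peaks of 4.27-fold in control 2 and 6.57-fold in CpG 2 at a promoter shared with 4933433G15Rik, and the region around its start also held a peak of 8.12-fold in control 1 without the Promoter class. Mapk8, encoding JNK1, had a single promoter peak, of 2.82-fold in control 1 (percentile 0.691). Mapk11 and Mapk13, which encode the beta and delta forms of p38, had none. Among the MAPKAPK genes, Mapkapk5 had up to 2 promoter peaks in control 1, control 2 and CpG 2, of 3.91-fold to 6.7-fold, all at a promoter shared with Gm42878. Of the 6 associated genes, 2, 3, 0 and 3 had a promoter call (33.3%, 50%, 0% and 50%). Mapk1ip1l had peaks of 7.04-fold and 4.05-fold in the control libraries that no CpG peak overlapped, and it had no nearest peak of any class in either CpG library. Mapk8ip2 and Mapk8ip3 encode JNK scaffold proteins. Mapk8ip2 had promoter peaks in control 2 (4.15-fold) and CpG 2 (7.97-fold), and Mapk8ip3 in CpG 2 alone (4.27-fold). The start region of Mapk8ip3, with summits from -128 to +73 bases, also held peaks of 4.4-fold in control 1 and 6.42-fold in control 2 that carried another class.

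Over all their promoter peaks, 20, 24, 5 and 17 in the 4 libraries, the cascade genes sat low in the lists by fold enrichment. Their median percentile was 36 and 26.3 in the control lists, 4.49 in CpG 1 and 26.3 in CpG 2, against 47.3, 46, 37.4 and 43.7 for all promoter peaks of the same lists. Of these peaks, 5, 8, 1 and 5 were shared with the promoter of another gene, against 12.9%, 12%, 13.7% and 13.3% of all promoter peaks. Outside CpG 1, they included a peak shared by Map2k3 and Map2k3os, both cascade genes, and up to 2 peaks of Mapkapk5 a library. The shared peaks thus came from few loci.

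Counting every peak whose nearest gene is one of the 38, there were 71, 84, 25 and 54 peaks. As a share of all peaks in the list this was 0.243%, 0.225%, 0.184% and 0.209%, which is 0.234% ± 0.0126 in control and 0.197% ± 0.0173 in CpG cells (SD, n = 2 each). Both CpG libraries lay below both control libraries, and the exact permutation p of 0.333 is the smallest possible. Over peaks of at least 5-fold enrichment the libraries no longer separated, at 0.199% in control and 0.189% in CpG cells (exact permutation p = 0.667). With no fold limit, 31, 30, 17 and 26 of the 38 genes were the nearest gene of at least 1 peak (81.6%, 78.9%, 44.7% and 68.4%). Over all named genes these shares were 64%, 72.1%, 43.1% and 61.6%, and over coding genes 69.5%, 76.8%, 39.6% and 65.6%. Control 2 and CpG 2 were thus near the share of coding genes. In all 4 libraries 11 cascade genes were the nearest gene of a peak (28.9%), against 24.6% of all named and 25.9% of coding genes. Because a longer gene can hold more peaks, these counts stand beside a median gene length of 39957 bases for the cascade genes, 8826 for all named genes and 21990 for coding genes, and the part of length was not tested.

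The peaks were spread unevenly over the genes. Map4k3, encoding the kinase GLK, whose only promoter peak was 5.53-fold in control 1, was the nearest gene of 7, 5, 5 and 3 peaks, the most in its tier, and Map3k1 led the MAP3Ks with 6, 8, 0 and 5. Map2k6, encoding the p38 activator MKK6, led the MAP2Ks with 3, 3, 2 and 4, although it had no promoter call. Mapk6 led the MAPKs with 2, 4, 0 and 4, and Mapk8ip3 the associated genes with 2, 3, 0 and 3. At the other end, Map2k4, Map3k11, Mapk11 and Mapk8 each had 1 such peak over all 4 libraries. These counts credit a peak to its nearest gene only, and the control promoter peaks of Map3k11 were credited to Pcnx3. Peaks with a class of the gene other than Promoter, whichever gene was nearest, numbered 5, 3, 0 and 1 for Map3k11 and 1, 2, 0 and 1 for Mapk8. By that count Map3k5 had 5, 15, 2 and 9 and Map3k1 had 6, 8, 0 and 5. Peaks inside the gene itself and outside its promoter made up 57.7%, 63.1%, 40% and 61.1% of the peaks nearest to a cascade gene. The same share was 34.5%, 32.8%, 26% and 32% of the peaks nearest to any named gene. The part of gene length in this difference was not tested.

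When peaks of the 4 libraries that overlap by at least 1 base were merged, the cascade genes had 118 of 55621 regions. Of the 118, 13 regions (11%) held a peak of every library, against 10.1% of all regions. Peaks of every library but CpG 1 made up 20 regions (16.9%, against 12.2%), and peaks of both control libraries alone 9 regions (7.63%, against 8.7%). Peaks of both CpG libraries alone made up 1 region (0.847%, against 1.15%). That region lies in an intron of Map2k6, at chr11:110321438-110321698 in the lists' coordinates, with 5.47-fold in CpG 1 and 7.98-fold in CpG 2. The region just before it, chr11:110320596-110321257, held peaks of control 2 (7.02-fold) and CpG 2 (10.7-fold). Before that, control 1 had a peak of 5.92-fold at chr11:110320024-110320199, so control peaks were called close by.

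Of the 13 regions found in every library, 5 were at the starts of Map3k3, Mapk7, Mapk9, Map3k2 and Map2k7, and 8 lay elsewhere. The region with the highest fold enrichment in control 1, control 2 and CpG 2 was another intron region of Map2k6, at chr11:110317673-110318345. It lay about 3 kb before the region with peaks of the CpG libraries alone. Its fold enrichment was 11.3 and 15.3 in the control libraries and 9.25 and 20.4 in CpG 1 and CpG 2, and its percentile was 94.6 or more in each list. An intron region of Map3k5, at chr10:19814808-19815560, had 4.93-fold and 3.43-fold in the control libraries (percentiles 29.4 and 2.86) and 7.69-fold and 14.8-fold in the CpG libraries (89.8 and 94.6). Here the values of the 2 conditions did not overlap, but folds of separately called lists have no common scale and no test was made. An intron region of Map3k7cl, a gene named after Map3k7, at chr16:87382239-87383245, had 8.65-fold, 7.66-fold, 7.67-fold and 15.4-fold. Upstream of Map4k3, a region at chr17:81069695-81071471 had 7.54-fold, 11.9-fold, 9.29-fold and 14.9-fold, and its percentile was at least 78 in each list. A second one at chr17:81072762-81073585 had 9.05-fold, 9.93-fold, 6.67-fold and 4.85-fold. The others were a pair upstream of Map4k4, with summits 4004 to 5530 bases from its start, and 1 upstream of Mapk13, with summits 18480 to 18646 bases from it.

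**Figure D4:**
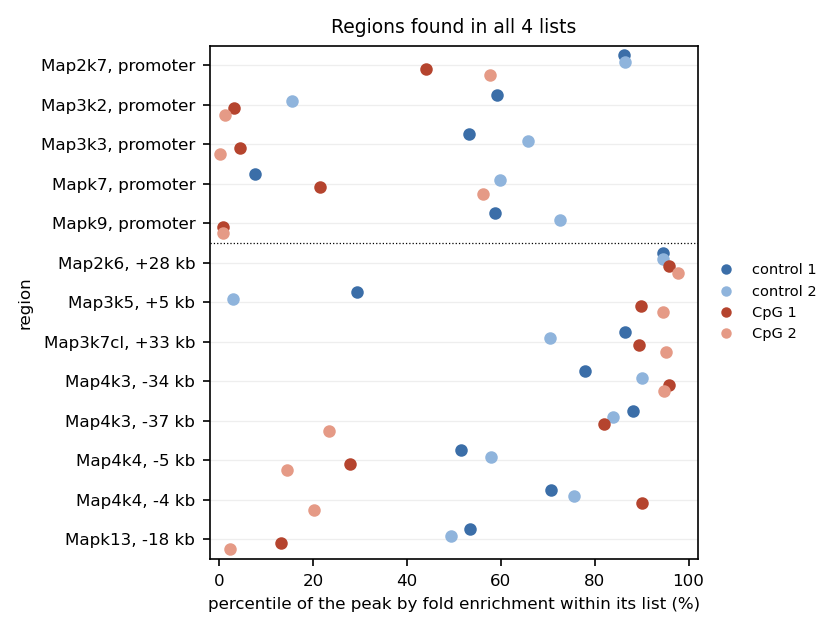
Percentile of fold enrichment within each library's list (0 to 100) for the 13 regions of MAP kinase cascade genes that hold a peak of all 4 libraries, with 1 colour per library. The Map2k6 intron region is at 94.6 or above in every list, and the promoter regions of Map3k3 and Mapk9 are below 5 in both CpG lists.

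For the 5 start regions the median percentile was 58.8 and 65.9 in the control lists and 4.49 and 1.15 in the CpG lists, against 68.2, 77.1, 34.7 and 75 for all 1537 promoter regions found in every library. For the 8 other regions it was 74.3, 73.1, 89.6 and 58.9, against 76.6, 85.4, 62.8 and 83.1 for all 4062 other regions. In CpG 2 the start regions of the cascade genes thus ranked far below the usual promoter region shared by all libraries, with Mapk7 and Map2k7, at 56.2 and 57.7, as the exceptions. Not among these regions was an intron region of Mapk8ip3, which held no CpG 1 peak. It had 7.01-fold, 15.5-fold and 22.4-fold in control 1, control 2 and CpG 2.

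The pathway genes outside the naming pattern came from lists of Ras proteins, Raf kinases, other upstream kinases, TAK1 partners, substrate kinases, inhibitors and target transcription factors. Of 55 such genes 49 were named in the lists, and 24, 24, 9 and 22 of them had a promoter call (49%, 49%, 18.4% and 44.9%). The same shares were 24.1%, 28.7%, 10.4% and 22.3% of all named genes. They were 33.2%, 38.8%, 14.1% and 30.5% of coding genes. All 4 libraries had a call at 7: the substrate kinase genes Rps6ka2, Rps6ka5 and Mknk2, the MAPK-related kinase gene Nlk, the inhibitor genes Spred1 and Spred2, and Ets2, a transcription factor phosphorylated by ERK, which had the highest peaks of these 7 in control 1, control 2 and CpG 2 (14.8-fold, 11.8-fold and 13.6-fold). A call in all 4 libraries was found for 5.46% of all named and 7.77% of coding genes. Substrate kinases had calls at 5, 4, 4 and 6 of 7 genes (71.4%, 57.1%, 57.1% and 85.7%). The Ras group had calls at 5, 5, 1 and 3 of 11, with Sos1 and Nf1 among those called in control cells only, in both libraries. In the Raf group, Braf had a call in control 2 and CpG 2 (7.31-fold and 6.59-fold), and Ksr1 and Lamtor3, the genes of scaffold proteins, in CpG 2 only (5.32-fold and 7.28-fold). Spry2, an inhibitor of the pathway, and Tab3, a TAK1 partner, were called in both control libraries alone, as Sos1 and Nf1 were. That pattern was found for 4.35% of all named and 6.06% of coding genes. Shc1, the gene of an adaptor that links receptors to Ras, was the only one of the 49 called in CpG cells only. Its peaks were 4.09-fold in CpG 1 and 8.31-fold in CpG 2, and 0.618% of all named and 0.811% of coding genes had that pattern.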

How the data were processed

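CUT&Tag peak lists of 4 anti-IRF5 libraries and 2 lists of whole conditions were used. Per the submitters' processing notes, the tools named are MACS2 2.1.0, ChIPseeker, BWA 0.7.12 and fastp 0.20.0, with no settings. The build is not stated in the sources at hand. The deposited columns are the pileup (a signal of fragment coverage), the fold enrichment (a ratio over background), and −log10 of the p-value and of the q-value. All values are the authors', and the files hold no counts that could be modelled. The lowest −log10 p in the deposited lists was 5 to 5.04. Lines that only continue an overlong annotation cell (281 to 1017 a list) were skipped, and peaks on the 21 nuclear chromosomes were kept.

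With Python 3.11.15, pandas 2.3.3 and scipy 1.17.1, promoter calls were matched by gene identifier, shares of genes and of peaks were computed per library, and conditions were compared by two-sided exact permutation over libraries. No set test was run. RefSeq (GRCm38.p6) gave biotypes and promoter sequences, and symbols matched 16324 of the named genes. The parser was tested on simulated data. Fold enrichments were not compared between lists by any test. The members, gene lists and motifs were chosen with earlier results of these data known. Values in every library are given for members called in all 4 libraries or in 1 condition only, the member with most nearest peaks in each tier, and a fixed list of core kinases; the other members are given more briefly. Another 920 gene identifiers with a promoter call had no name and were left out. Alternatives were a distance rule of 1 kb, lists of equal length, a minimum fold enrichment of 5, kinase tiers only, peaks outside promoters, overlap rules, the lists of whole conditions, each library left out, and pairing by replicate number. Some results on single genes are not reported here.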

Additional observations from a re-analysis of the deposited data

How the results depend on the processing

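There were 58 alternatives, many of them for counts of genes, which have no direction. None of those for a difference or a lead turned its direction. Of the 58, 13 moved a value beyond the limit set for it (1.5 times for a count of genes, the spread of the libraries for the lead over named genes). The other 45 can still differ in size or in which genes are counted. The overlap rules can only remove genes, so they could not change the CpG-only count of 0. Leaving out 1 library gave differences in promoter calls from −35.5 to −6.58 points, and a fold enrichment of at least 5 gave a difference in nearest peaks of −0.00952 in place of −0.0373 points. Leaving out 1 library moved the genes called in all libraries from 3 to a range of 3 to 10, those called in CpG cells only from 0 to a range of 0 to 2, and those called in control cells only from 3 to a range of 3 to 10; the 10 in all libraries, and the genes Map2k1 and Mapk8ip3 with the Promoter class in CpG cells only, came from leaving out CpG 1, and the 10 control-only genes from leaving out CpG 2. Control-only genes numbered 5 without control 1 and 7 without control 2. Map3k2 was CpG-only without control 2 by the class of its peaks alone, since control 1 had a 6.08-fold peak in the same start region. With a summit within 1 kb of the start in place of the Promoter class, 8 genes were control-only, Mapkapk3 among them. Lists held to the 13553 peaks of highest −log10 p left 1 gene in all 4 libraries (Mapk7) and 1 control-only gene (Map4k2). The calls then numbered 11, 11, 5 and 6 of 38 (28.9%, 28.9%, 13.2% and 15.8%, against 15.1%, 14.5%, 10.4% and 14.1% of all named genes), the difference between conditions was −14.5 percentage points and the mean lead over all named genes 8.18 points. A fold enrichment of at least 5 left 0 genes in all 4 libraries. Its 4 control-only genes were Map2k3, Map3k11, Map3k3 and Mapk9, and Map4k4, Mapk1ip1l and Mapk3 were no longer among them. The same limit lowered the lead of the cascade genes over all named genes, averaged over the libraries, from 16.8 to 6.07 points. With no fold limit, the mean lead over coding genes was 9.01 points. The authors' lists of whole conditions gave 12 genes in both conditions, 8 in control only and 0 in CpG only. With the replicate block, pairing libraries by number, the difference in promoter calls was −21.1 points (pairs −31.6 and −10.5, exact paired p = 0.5, the smallest that 2 pairs allow) and that in nearest peaks −0.0373 points (exact p = 0.5). The numbers are not shown to pair the libraries: over 20875 genes, the difference in promoter calls between replicates 1 and 2 correlated at r = 0.0469 between the conditions. With 2 libraries a condition, no p-value here can pass the usual threshold. Depth is unknown, so a missing call, above all in CpG 1, does not show that signal was absent.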
